A study of Homo sapiens with 8 samples.

Results

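MALAT1, NEAT1, TUG1 and DANCR are 4 widely expressed long noncoding RNAs, and their levels were followed here in cells kept with sodium benzoate (SB). They were taken by name, as the listed genes with a row in the deposited expression table, and all 4 had a row among its 14526 genes. RNA was sequenced from 4 control libraries and from 4 libraries of cells exposed to 10 mM SB for 24 hours. SB is the salt of benzoic acid, and the study asked what it does to gene expression alongside lysine benzoylation of histones. The cells are labelled HepG2, an established line of human liver carcinoma cells, and both groups were grown in DMEM with serum, with no genetic change named in the labels. The study's methods call the replicates biological, and the labels do not say how the cultures were kept apart.

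Long noncoding RNAs are transcribed and processed much like messenger RNAs but act as RNA. MALAT1 is enriched in nuclear speckles, the compartments that store splicing factors, and NEAT1 is the scaffold around which paraspeckle proteins assemble. The 3′ ends of MALAT1 and of long NEAT1 are not made by polyadenylation: RNase P cuts just upstream of a tRNA-like small RNA, and the new end folds into a triple helix that shields it from decay. TUG1 is found in the nucleus and the cytoplasm and has been described as a partner of Polycomb repressive complex 2, and DANCR is a short spliced RNA known for holding back differentiation, whose gene also carries a small nucleolar RNA.

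The 3′ ends of the nuclear-retained pair are shown first because this shared ending sets them apart from TUG1 and DANCR. Both are on the plus strand of hg38, at chr11:65506037-65506173 for MALAT1 and chr11:65445461-65445598 for NEAT1. Capitals mark the small RNA annotated in GENCODE release 44, and the 80 bases before it, in lower case, hold the end of the long RNA.
MALAT1 3′ end: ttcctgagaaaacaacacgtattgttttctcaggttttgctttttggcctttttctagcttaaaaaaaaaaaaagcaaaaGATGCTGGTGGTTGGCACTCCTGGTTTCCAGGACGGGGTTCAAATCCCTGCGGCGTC
NEAT1 3′ end: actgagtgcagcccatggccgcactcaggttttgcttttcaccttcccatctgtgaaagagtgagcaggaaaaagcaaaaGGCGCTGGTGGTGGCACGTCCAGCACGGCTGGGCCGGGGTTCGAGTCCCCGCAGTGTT
The small RNAs were 57 and 58 bases long and matched at 40 of 59 alignment columns, or 67.8%. The stretches before them matched at 60.7% of 89 columns. The alignments allowed gaps and no unrelated stretches were aligned beside them, so these shares alone do not show likeness.

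Shown next are the RefSeq promoter windows of TUG1 (chr22:30969015-30969314) and DANCR (chr4:52712144-52712443), both on the plus strand of GRCh38.p14. They were picked because TUG1 was called higher under SB and DANCR was not called in the main comparison, as given below. Capitals mark CCAAT and its reverse complement ATTGG, the letters bound by the factor NF-Y, which do not overlap each other here.
TUG1 promoter: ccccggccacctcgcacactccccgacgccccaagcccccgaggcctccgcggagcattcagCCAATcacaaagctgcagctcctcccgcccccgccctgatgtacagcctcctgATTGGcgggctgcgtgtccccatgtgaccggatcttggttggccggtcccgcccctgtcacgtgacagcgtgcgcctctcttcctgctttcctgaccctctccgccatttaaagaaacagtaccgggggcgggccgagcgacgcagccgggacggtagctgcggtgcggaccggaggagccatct
DANCR promoter: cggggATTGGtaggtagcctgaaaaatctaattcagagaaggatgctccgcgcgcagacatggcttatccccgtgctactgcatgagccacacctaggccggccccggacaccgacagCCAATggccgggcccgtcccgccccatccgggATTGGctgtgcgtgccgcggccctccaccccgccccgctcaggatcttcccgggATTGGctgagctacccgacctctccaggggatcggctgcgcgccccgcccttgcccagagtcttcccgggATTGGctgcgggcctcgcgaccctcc
The TUG1 window held 2 such matches and the DANCR window 5. At least 1 match was present in 34.6% of 35116 promoter windows of this length. At least as many as in TUG1 were found in 10.75%, and at least as many as in DANCR in 0.36%. Whether these letters have a part in the response to SB was not tested. Neither of the RefSeq windows for MALAT1 held a match. NEAT1 had no entry among the promoter sequences used here.

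Of the 4 RNAs, NEAT1, TUG1 and MALAT1 were called higher in SB-treated cells, with limma on log2(RPKM + 1) and a Benjamini-Hochberg adjusted p-value below 0.05 over all genes. RPKM is the read count scaled to gene length and library size. The rise was 1.32-fold for NEAT1, 1.23-fold for TUG1 and 1.46-fold for MALAT1 as ratios of mean RPKM, and the rise of MALAT1 hung on how its first control library is treated. DANCR differed by 1.05-fold and was not called. SB moved a large part of the transcriptome by the same test, with 33.0% of all genes called higher and 32.6% called lower (65.6% in either direction), so 3 calls among 4 genes are to be read against that background. In bulk RNA, more cells making a transcript and more transcript per cell cannot be told apart.

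**Figure D1:**
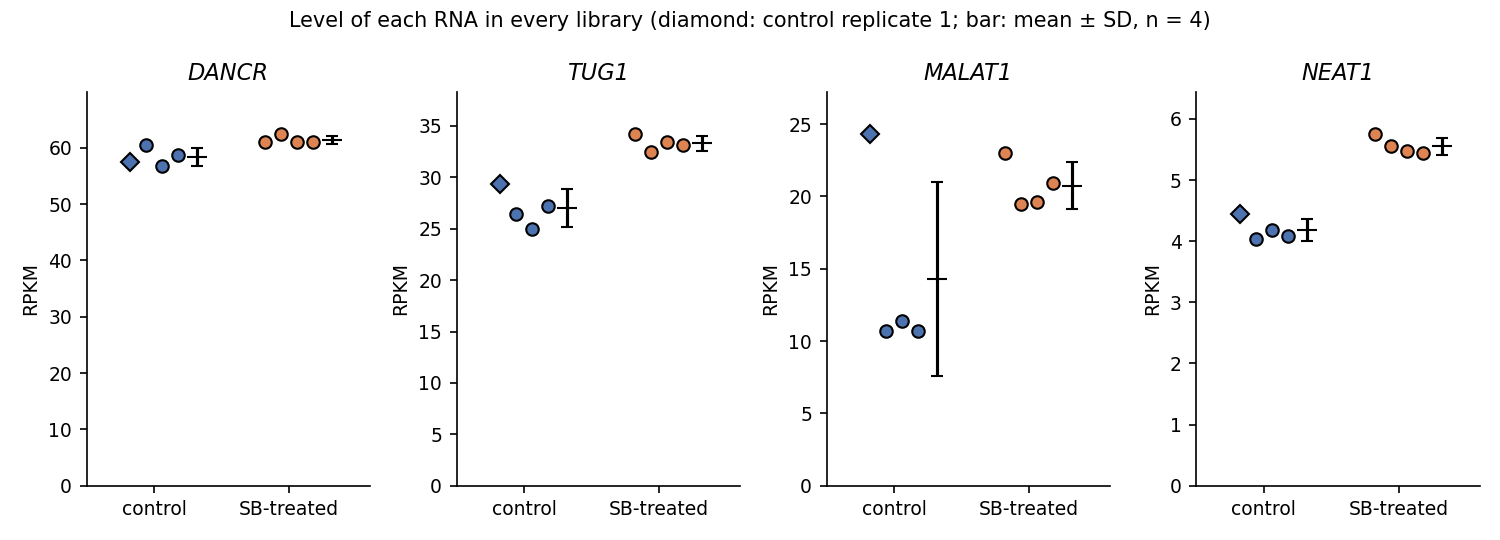
RPKM (vertical axes, each from 0) of DANCR, TUG1, MALAT1 and NEAT1 in every control (blue) and SB-treated (orange) library, with the diamond for control replicate 1 and bars for the mean ± SD (n = 4). NEAT1 and TUG1 are higher in every SB-treated library than in any control library, and the diamond of MALAT1, at 24.3 RPKM, lies above all of its SB-treated points.

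The libraries held between 36990091 and 44878446 recovered reads on the genes of the table, so the counting error of a single value was between 0.92% and 2.4% for these 4 genes and covers counting only. Control replicate 1 stood apart from the other controls. Its read counts differed from theirs by a chi-square of 33.4 to 38.4 per degree of freedom, against 1.52 to 3.8 for the other pairs within a group and 68.5 to 113 between groups. Results that rest on this library are therefore given with and without it. The cell line label was checked with 20 hepatocyte marker genes, and 18 of them, albumin, alpha-fetoprotein and the apolipoproteins among them, had no row in the table used here. Transferrin (TF) was between 0.167 and 0.21 RPKM in the controls and was low under SB too, at no more than 0.485 RPKM. These markers go against the label, and the cells are called by their label only.

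NEAT1 (ENSG00000245532.11, chr11:65422774-65445540, plus strand) is the architectural RNA of paraspeckles. Its level was 4.44, 4.03, 4.19 and 4.09 RPKM in control replicates 1 to 4 and 5.75, 5.55, 5.47 and 5.44 RPKM in SB-treated replicates 1 to 4. Every SB-treated library lay above every control library. The mean went from 4.19 ± 0.178 to 5.55 ± 0.14 RPKM (SD, n = 4 each), which was a change of 0.34 on the log2(RPKM + 1) scale (SE 0.037, limma adjusted p = 3.49e-05). The exact permutation p was 0.0286, two-sided, which is the smallest that 4 against 4 can give. Groups that did not overlap in the higher direction were found for 31.0% of all genes, and in the lower direction for 30.5%.

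The reads of NEAT1 were divided by a counted length of 22741 bases, that of its long isoform, which only 0.392% of genes reach. GENCODE lists 9 NEAT1 transcripts from 512 to 22743 bases, and the short isoform shares its 5′ part with the long one. Reads from both isoforms fell into 1 value, so the table does not say which isoform rose, and the RPKM understates the level of the short one. Without control replicate 1 the NEAT1 log2 fold change was 0.36 (SE 0.027, limma adjusted p = 2.56e-06).

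MALAT1 (ENSG00000251562.11, chr11:65497640-65508073, plus strand) is the speckle-enriched RNA, with a counted length of 8751 bases. Its level was 24.3, 10.7, 11.4 and 10.7 RPKM in control replicates 1 to 4, from 9037, 3695, 3557 and 3813 reads. In SB-treated replicates 1 to 4 it was 23.0, 19.5, 19.6 and 20.9 RPKM. Controls 2 to 4 lay below every SB-treated library and control 1 above every one of them, so the groups overlapped.

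With all libraries the MALAT1 mean went from 14.3 ± 6.68 to 20.7 ± 1.63 RPKM (SD, n = 4 each), with a log2 fold change of 0.59 (SE 0.22, limma adjusted p = 0.0378, exact permutation p = 0.143, two-sided). Without control replicate 1 the control mean was 10.9 ± 0.396 RPKM (SD, n = 3), and MALAT1 was 1.9-fold higher under SB. The log2 fold change was then 0.86 (SE 0.054, limma adjusted p = 8.79e-07) and the groups did not overlap. In that fit 37.6% of all genes were called higher, and 36.7% did not overlap in that direction. Leaving out any of the other 7 libraries in place of control 1 ended the call, with limma adjusted p-values between 0.061 and 0.0991.

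The distance of MALAT1 in control 1 from the other controls was 1.08 on the log2(RPKM + 1) scale, against an SD of 0.047 among controls 2 to 4. Counting MALAT1 itself, 2 genes were as high in that library, or 0.0138% of the table. The other, chosen here after its values were seen, was CDR1, whose reads cannot be told apart from those of the RNA on its opposite strand, with 24.6 RPKM in control 1 and between 6.23 and 8.19 RPKM in the remaining 7 libraries. Farther out in the opposite direction lay the RNase P RNA RPPH1, the signal recognition particle RNA RN7SL1, which has near-identical copies in the genome, and MIR641, at -1.58, -1.77 and -1.41. RPPH1 was 1.31 RPKM in control 1, between 3.87 and 7.47 RPKM in the other controls and between 1.91 and 8.25 RPKM under SB, so a low value was not particular to control 1. RN7SL1 was 10.5 RPKM in control 1 and between 30.8 and 42.7 RPKM in the remaining 7 libraries. Whether the other values of this library have a part in the level of MALAT1 was not tested.

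GC content moved with the position of control 1. Across 14077 genes with a GC value, the distance of control 1 from the other controls had a Pearson r of -0.714 with the GC percentage of the transcript, as a description, since genes are not independent replicates. MALAT1 has a GC content of 42.0%, and 2422 genes within 2 percentage points of it had a median distance of 0.12, with the middle of their distribution between 0.04 and 0.21. The distance of MALAT1 was far outside that range. NEAT1, TUG1 and DANCR, at 0.09, 0.16 and -0.03, lay close to the medians of genes of like GC content, which were 0.08, 0.1 and 0.01.

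**Figure D2:**
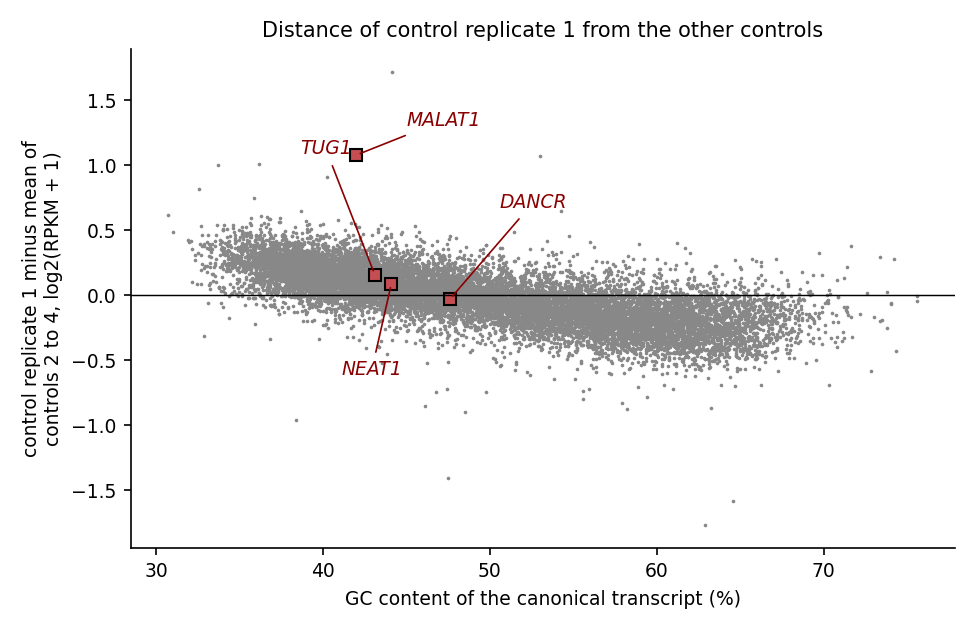
Distance of control replicate 1 from the mean of controls 2 to 4 on the log2(RPKM + 1) scale (vertical axis) against the GC content of the transcript in percent (horizontal axis), with a grey point per gene and red squares for the 4 RNAs. MALAT1 lies at 1.08, far above genes of like GC content, and NEAT1, TUG1 and DANCR lie within the band of all genes.

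TUG1 (ENSG00000253352.10, chr22:30969245-30979395, plus strand) was counted over 7666 bases, and GENCODE now lists its gene as protein coding. Its level was 29.4, 26.4, 25.0 and 27.2 RPKM in control replicates 1 to 4 and 34.2, 32.5, 33.4 and 33.1 RPKM in SB-treated replicates 1 to 4. Every SB-treated library lay above every control, and the highest control was replicate 1. The mean went from 27.0 ± 1.87 to 33.3 ± 0.733 RPKM (SD, n = 4 each), with a difference of 0.30 in log2(RPKM + 1) (SE 0.049, limma adjusted p = 0.000512, exact permutation p = 0.0286). Without control replicate 1 it was 0.34 (SE 0.034, limma adjusted p = 1.57e-05).

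DANCR (ENSG00000226950.8, chr4:52712325-52723623, plus strand) had the highest level per length of the 4 RNAs and, before correction for GC content and length, the smallest difference. Its level was 57.4, 60.5, 56.8 and 58.7 RPKM in control replicates 1 to 4 and 61.0, 62.4, 61.1 and 61.1 RPKM in SB-treated replicates 1 to 4. The SB-treated values lay just above the controls without overlap, the gap between the nearest libraries being smaller than the counting error of either. The mean went from 58.4 ± 1.64 to 61.4 ± 0.685 RPKM (SD, n = 4 each), with a difference of 0.07 in log2(RPKM + 1) (SE 0.033, limma adjusted p = 0.0786, exact permutation p = 0.0286). The 95% interval of that log2 fold change, from limma, ran from -0.0018 to 0.148, and without control replicate 1 the value was again 0.07 (limma adjusted p = 0.0604).

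Scaling and gene length both touched the DANCR value. Library sizes without the TMM factors, which shifted the median log2 ratio of all genes from 0.0077 to 0.113, gave a DANCR log2 fold change of 0.18 (limma adjusted p = 0.00133). The counted length of DANCR was 855 bases, against a median of 3339 bases over all genes. Among 921 genes of similar length the median log2 fold change was -0.21, with the middle of the distribution between -0.41 and 0.03, so DANCR lay above most genes of its length. Genes similar in length to NEAT1, TUG1 and MALAT1 leaned upward, with median log2 fold changes of 0.07, 0.1 and 0.11. Their upper quartiles were 0.24, 0.28 and 0.29, and the value of TUG1, at 0.30, was only just above its own. A log2 fold change as high as that of NEAT1, TUG1 and MALAT1 was found in 12.9%, 15.9% and 2.87% of all genes. After each library was corrected for GC content and length, the DANCR log2 fold change was 0.30 (limma adjusted p = 1.04e-05). NEAT1, TUG1 and MALAT1 were then at 0.24, 0.21 and 0.5 and also called higher, so DANCR no longer had the smallest difference.

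**Figure D3:**
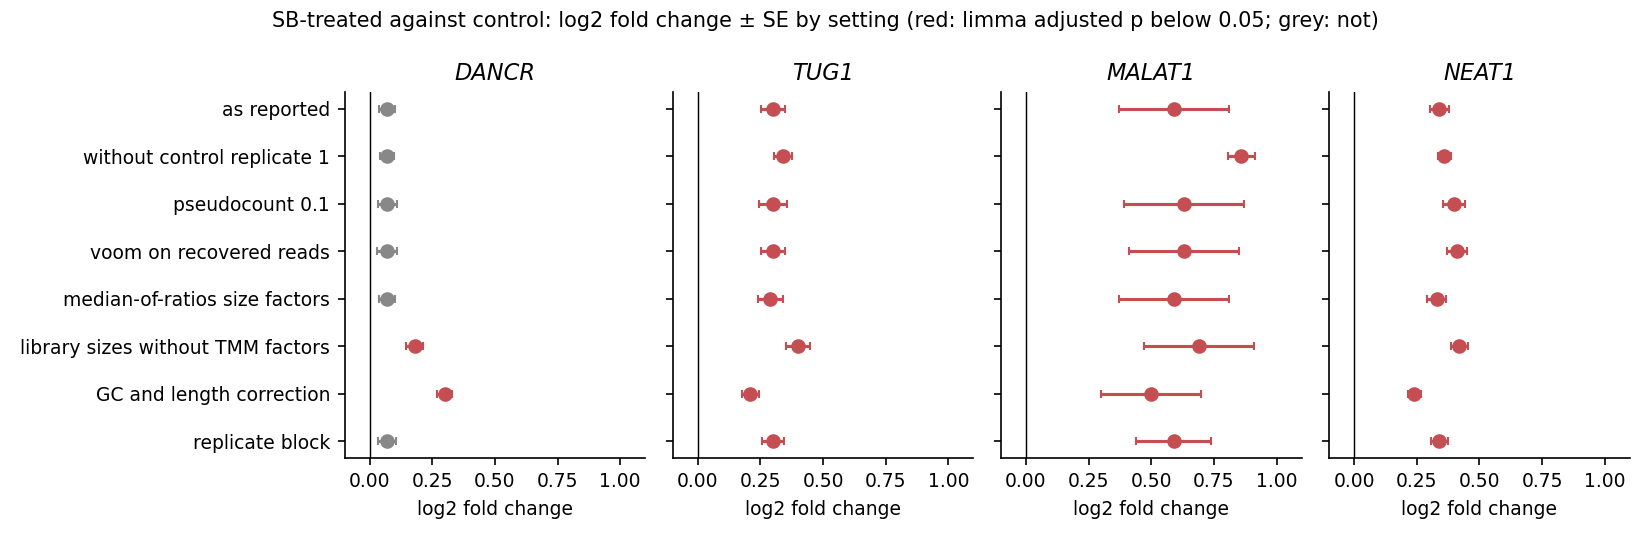
Log2 fold change ± SE of SB-treated against control cells (horizontal axis) for each RNA under 8 settings of the fit (vertical axis), in red where the limma adjusted p-value was below 0.05 and grey where it was not. NEAT1 and TUG1 stay between 0.21 and 0.42, MALAT1 moves from 0.59 to 0.86 with control replicate 1 left out, and DANCR is called in 2 settings only.

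The order of the levels per length was the same in both groups, with DANCR highest, then TUG1, MALAT1 and NEAT1. No neighbours in that order had overlapping values within the control or within the SB-treated group. DANCR stood above 91.8% of all genes in the controls and NEAT1 above 34.9%, below the median gene at 8.26 RPKM. Under SB the places were 94.0% for DANCR, 85.8% for TUG1, 75.0% for MALAT1 and 39.1% for NEAT1.

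Ratios between 2 of the RNAs within a library do not depend on how libraries are scaled, and 6 such ratios were compared. They are not free of effects of GC content and gene length that differ between libraries. The ratios were not computed again after the correction for these. With that correction the log2 fold changes were 0.30 for DANCR, 0.24 for NEAT1 and 0.21 for TUG1, so the lower DANCR ratios given here hold for uncorrected values only. The ratio of DANCR to NEAT1 was 12.9, 15.0, 13.5 and 14.3 in the controls and 10.6, 11.3, 11.2 and 11.2 under SB. Every SB-treated library was lower, by 0.33 on the log2 scale (exact permutation p = 0.0286, adjusted over the 6 ratios 0.0857). The ratio of DANCR to TUG1 was 1.95, 2.29, 2.28 and 2.16 in the controls and 1.78, 1.92, 1.83 and 1.84 under SB, again without overlap, with a difference of -0.23 and the same p-values.

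The ratio of TUG1 to NEAT1 overlapped between the groups and differed by -0.10 (SE 0.041, exact permutation p = 0.114, adjusted 0.214). The 3 ratios to MALAT1 overlapped with all libraries, with exact permutation p-values between 0.143 and 0.543 before adjustment. Without control replicate 1 none of these 3 overlapped, and the differences were -0.49 for NEAT1, -0.58 for TUG1 and -0.86 for DANCR over MALAT1, where 3 against 4 can give no exact p below 0.0571. No ratio passed the threshold after adjustment, and none could have unless at least 4 of the 6 had reached the smallest exact p, so this says nothing about whether the RNAs changed equally.

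The 2 nuclear-body RNAs sit next to each other on chromosome 11, and 52100 bases separate NEAT1 from MALAT1. Within 100 kb of the 4 RNAs, 17 other genes had a row, of which 8 were called higher, 3 lower and 6 neither, beside 33.0% higher and 32.6% lower over all genes. Each of the 17 had the same call without control replicate 1. FRMD8, upstream of NEAT1, went from 6.13 ± 1.05 to 9.14 ± 0.304 RPKM (SD, n = 4), with a log2 fold change of 0.52 (limma adjusted p = 0.000839). MAP3K11, a kinase of the JNK pathway, and SSSCA1-AS1 each had a log2 fold change of 0.34, and LTBP3 and EHBP1L1 of 0.13 and 0.11. As ratios of mean RPKM, MAP3K11 rose 1.29-fold and SSSCA1-AS1 1.67-fold. SSSCA1-AS1 was low, with means of 0.669 RPKM in the controls and 1.11 RPKM under SB, from 19 to 71 reads per library. The calls of LTBP3 and EHBP1L1 did not hold after the GC and length correction, where LTBP3 was called lower at -0.09. DPF2, a chromatin remodelling subunit, and SSSCA1 were lower at -0.30 and -0.47, but the groups of SSSCA1 overlapped (exact permutation p = 0.114). FAM89B, TIGD3 and SLC25A45 were not called, at 0.10, 0.07 and 0.20.

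TUG1 starts 471 bases from MORC2, a chromatin-silencing ATPase read in the opposite direction. MORC2 went from 21.9 ± 0.675 to 24.7 ± 0.35 RPKM (SD, n = 4), with no overlap and a log2 fold change of 0.16 (SE 0.034, limma adjusted p = 0.00203). SMTN, a smooth muscle cytoskeletal protein, and OSBP2 were also called higher at 0.35 and 0.16, and MORC2-AS1 was not called at 0.15. OSBP2 lost its call after the GC and length correction. Beside DANCR, the deubiquitinase gene USP46 was called lower at -0.16, which was not called without the TMM factors at -0.07, and USP46-AS1 was not called at -0.08.

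Annotated genes also overlap the 4 RNAs themselves. TALAM1 lies on the opposite strand of MALAT1, 2 unnamed antisense RNAs lie within TUG1, and LINC01618, MIR4449, SNORA26 and ERVMER34-1 overlap DANCR. None of these had a row of its own in the table used here. The study's methods name a stranded TruSeq Total kit for the libraries, but the strand setting of the counting was not stated. Reads of an RNA and its antisense partner therefore cannot be told apart here.

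**Figure D4:**
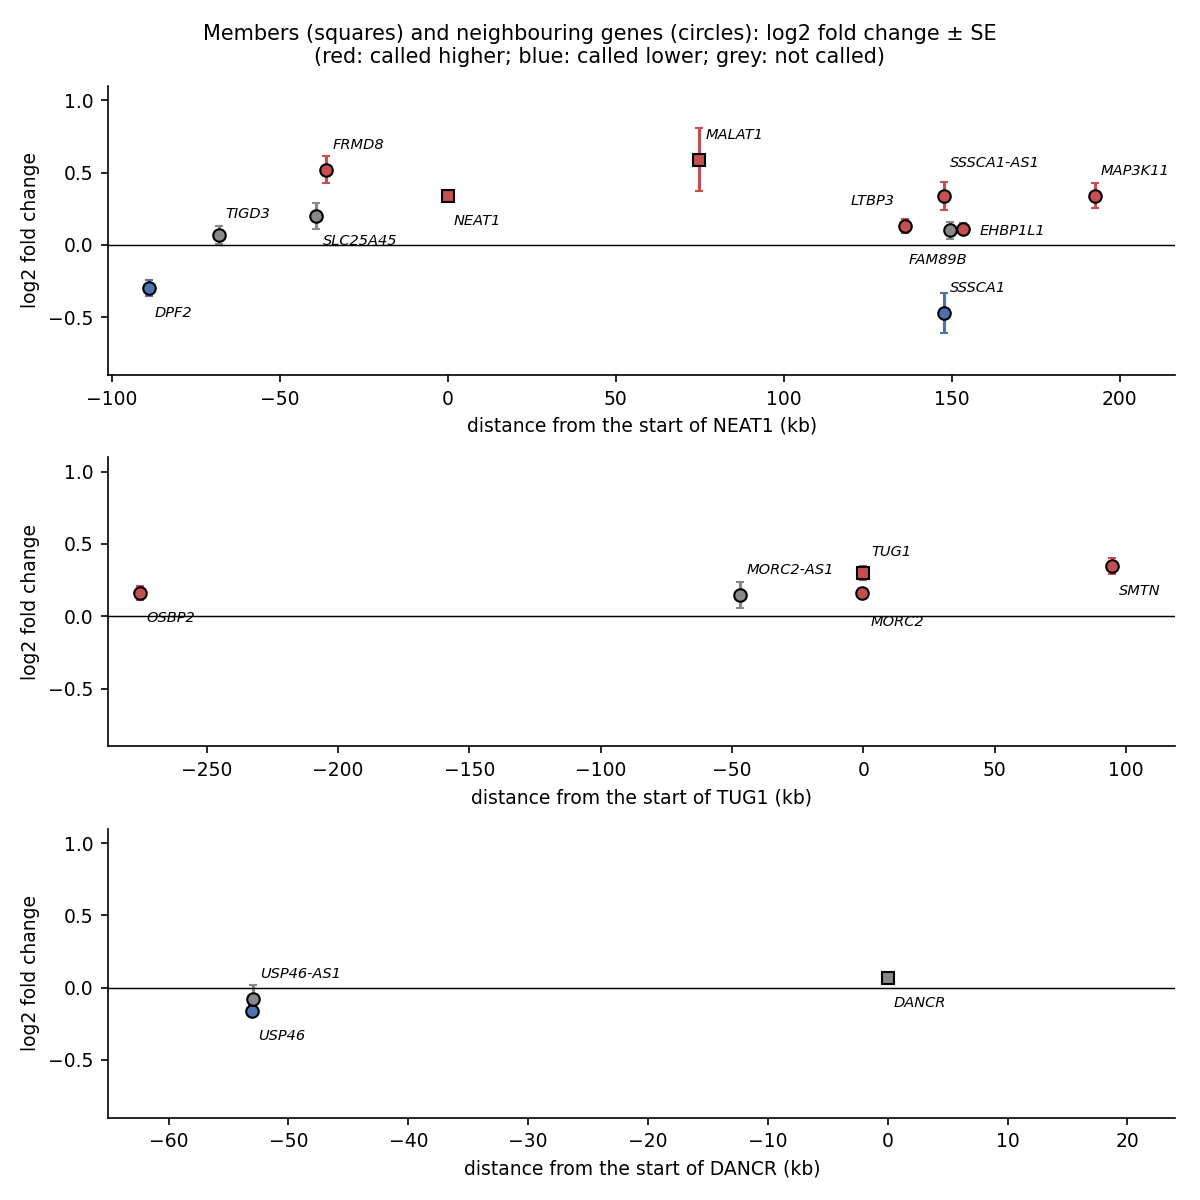
Log2 fold change ± SE on the log2(RPKM + 1) scale (vertical axes) of the 4 RNAs (squares) and of the neighbouring genes named in the text (circles) against the distance between gene starts in kb (horizontal axes), in red where called higher, blue where called lower and grey where not called. Higher and lower genes both flank NEAT1 and MALAT1, from FRMD8 at 0.52 to SSSCA1 at -0.47, whose groups overlapped.

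Genes that work with these RNAs, and other long noncoding RNAs, were followed in 5 lists. Their counts stand beside 33.0% higher and 32.6% lower over all genes, which became 43.0% and 23.1% without the TMM factors and 37.6% and 37.9% without control replicate 1. Of 29 paraspeckle proteins with a row, 4 were called higher (13.8%), 15 lower (51.7%) and 10 neither, with a median log2 fold change of -0.12 against 0.00 for all genes, and without the TMM factors the counts were 7 higher and 8 lower with a median of -0.01. They were 5 higher and 16 lower without control replicate 1. Among the lower ones were RBM14, needed to build paraspeckles, at -0.65 (limma adjusted p = 0.000114), and PSPC1, a core paraspeckle protein, at -0.54 (limma adjusted p = 4.68e-06). PSPC1 went from 24.6 ± 1.28 to 16.6 ± 0.396 RPKM (SD, n = 4). FAM98A was lower at -0.50. Called higher were PCED1A at 0.32, SS18L1 at 0.30 and SFPQ, the partner of PSPC1 and NONO, at 0.15, but the groups of SFPQ overlapped and its call was lost with median-of-ratios scaling.

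Nuclear speckle proteins split with 6 higher (21.4%), 11 lower (39.3%, near the 32.6% of all genes) and 11 not called of 28 with a row (median -0.04), and without the TMM factors with 11 higher and 9 lower (median 0.06). With control replicate 1 left out, 9 were higher and 11 lower. CLK1, a kinase that acts on SR splicing factors, was higher at 0.43, from 17.5 ± 2.01 to 23.7 ± 0.804 RPKM (SD, n = 4). SRSF2, an SR splicing factor, was higher at 0.34. The speckle scaffold SRRM2 was higher at 0.23, and this call was lost after the GC and length correction at 0.03. The splicing factors SRSF7 and RBM25 and the SR protein kinase SRPK1 were lower at -0.47, -0.42 and -0.34.

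Genes of nuclear RNA end processing and turnover, which hold the RNase P subunits, were called lower more often than higher, with 17 lower (58.6%, against 32.6% of all genes), 2 higher (6.9%, against 33.0%) and 10 not called of 29 with a row (median -0.19), and with 14 lower and 3 higher without the TMM factors. The counts were 21 lower and 2 higher without control replicate 1. The RNase P subunit RPP40 was lowest at -0.84, going from 15.2 ± 2.27 to 7.99 ± 0.223 RPKM (SD, n = 4, limma adjusted p = 1.63e-05). RPP38, of the same enzyme, was at -0.57, and CPSF3, the nuclease that cuts before polyadenylation, at -0.48. The 2 called higher were ZFC3H1, which links nuclear RNA to the exosome, at 0.35, and the Integrator subunit INTS3 at 0.20, whose call was lost after the GC and length correction.

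All 11 listed genes of Polycomb repressive complex 2 had a row, and 3 were called higher (27.3%), 6 lower (54.5%) and 2 neither (median -0.22), with 3 higher and 6 lower also without the TMM factors, where fewer of all genes were lower, and 4 higher and 6 lower without control replicate 1. The accessory subunits PHF19 and PHF1 were higher at 0.77 and 0.48, and PHF19 went from 8.62 ± 1.0 to 15.4 ± 0.322 RPKM (SD, n = 4). The catalytic subunit EZH1 was higher at 0.38. The histone-binding RBBP7, the accessory subunit JARID2 and the core subunit EED were lower at -0.42, -0.42 and -0.33.

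Of 27 other named long noncoding RNAs with a row, 10 were called higher (37.0%, near the 33.0% of all genes), 6 lower (22.2%) and 11 neither (median -0.06), and without the TMM factors 11 were higher and 5 lower (median 0.02). Without control replicate 1 there were 10 in each direction. THRIL, CRNDE and LINC01021 were higher at 0.51, 0.47 and 0.36. EPB41L4A-AS1, which hosts a small nucleolar RNA, fell from 34.9 ± 1.83 to 18.3 ± 0.757 RPKM (SD, n = 4), with a difference of -0.90 in log2(RPKM + 1) (limma adjusted p = 6.48e-07). HOTAIR and FIRRE were lower at -0.50 and -0.46.

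**Figure D5:**
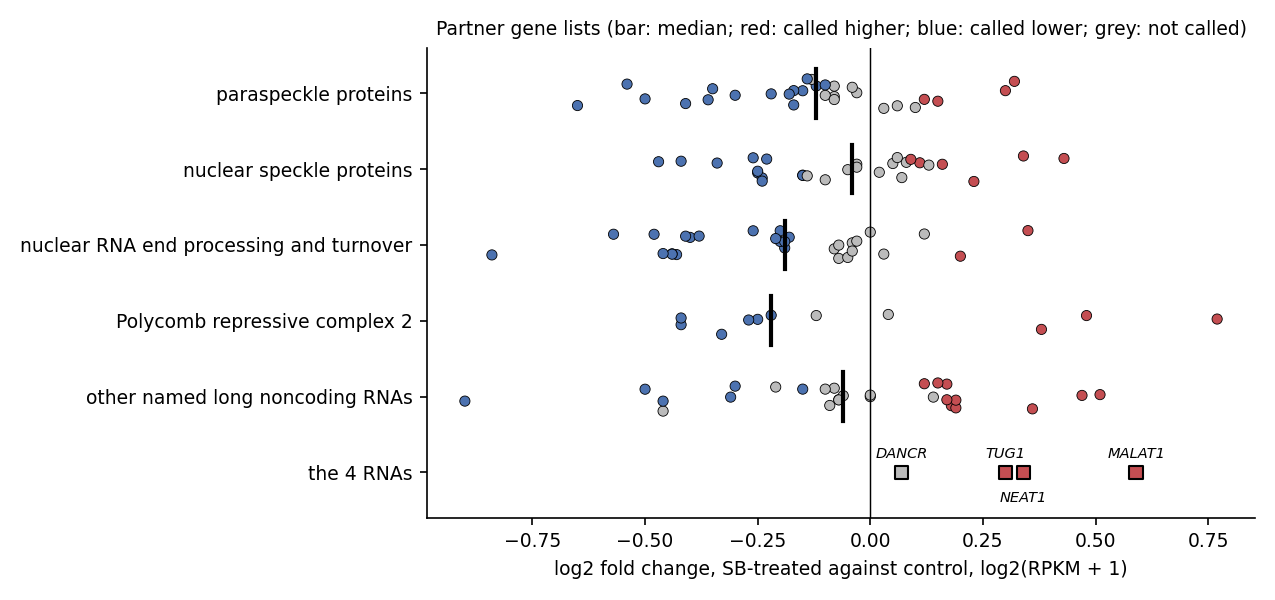
Log2 fold change on the log2(RPKM + 1) scale (horizontal axis) of each gene of the 5 lists and of the 4 RNAs (rows; vertical scatter only separates points), with a bar at the median of each list and colours for called higher (red), lower (blue) or not called (grey). NEAT1, TUG1 and MALAT1 lie between 0.30 and 0.59, to the right of every list median.

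The genes whose values followed each RNA most closely over the 8 libraries were ranked among 12545 genes by Pearson r of log2(RPKM + 1). These r values describe points that share libraries and the treatment, and carry no test. For MALAT1 they were RBM41 (0.9995), PERP (0.9958) and ZNF644 (0.9955), and all had their highest or second highest value in control 1, as RBM41 with 12.8 RPKM there, 10.2 to 10.4 RPKM in the other controls and 12.1 to 12.6 RPKM under SB. For NEAT1 they were MEIS1-AS3 (0.9968), MTUS1 (0.9965) and TMEM170A (0.9964), and for TUG1 ITGA4 (0.9974), RBL2 (0.9967) and JMY (0.9964). DANCR had weaker matches, with ZBED4 (0.9716), PFKP (0.9712) and KANK2 (0.9671). Between the 4 RNAs the highest r was that of NEAT1 and TUG1, at 0.953, and the lowest that of MALAT1 and DANCR, at 0.341.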

How the data were processed

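RNA from 4 control and 4 SB-treated libraries was analysed. Per the labels and the study's methods, the authors mapped single-end reads to hg38 with TopHat2 2.1.0, counted them per gene with featureCounts 1.5.0, removed genes of low CPM and scaled libraries with the TMM factors of edgeR 3.16.5 (versions from the submitters' processing notes). The authors deposited RPKM values per gene and library, for 14526 genes. The table also holds the authors' own fold changes and p-values, which were not used. No column of per-sample values was left unused (0).

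Whole reads were recovered from the RPKM values for 100% of genes, within 0.002 of a whole number, and totals may be slightly low where the reads of a gene share a common factor. Groups were compared with limma 3.58.1 in R 4.3.3 (lmFit, eBayes) on log2(RPKM + 1) without a further filter, and p-values were adjusted over the whole table by the Benjamini-Hochberg method. A fold change on this scale understates that of low genes. A gene was called at an adjusted p below 0.05. Exact permutation tests were two-sided. GC content and loci came from GENCODE release 44 on hg38, with a GC value for 96.9% of genes. Scripts were tested on simulated data. Alternatives were a pseudocount of 0.1, other library scalings, a minimum mean RPKM of 1, an intensity trend, each library left out and a block for replicate number. Voom on the recovered reads, a GC and length correction and the pseudocount of 0.1 without control replicate 1 were chosen after seeing the data.

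The members and gene lists were chosen with earlier results of these data known. Named genes were the 4 RNAs, every gene with a row within 100 kb of them, up to 3 called genes per direction and list, the 3 genes most alike each RNA, and hepatocyte markers with a row; values of some genes that this rule would name are not reported here.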

Additional observations from a re-analysis of the deposited data

Results flagged for a closer look

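In 6 of 20 groups of 4 libraries, the highest or lowest library lay apart from the rest by a gap that, as a share of the range of the group, passed Dixon's 95% critical value. Chance flags about 1 group in 20, and several of these share a value. The MALAT1 level in control replicate 1 had a gap of 0.923 of the range of the controls. The same library stood apart in the ratios of NEAT1 to MALAT1 (0.945) and of DANCR to MALAT1 (0.859), which contain the same MALAT1 value. The DANCR level of SB-treated replicate 2 had a gap of 0.872, within a group whose values ran only from 61.0 to 62.4 RPKM. The ratio of TUG1 to NEAT1 in control replicate 3 had a gap of 0.867, at 5.95 against 6.55 to 6.64 in the other controls. The ratio of DANCR to NEAT1 in SB-treated replicate 1 had a gap of 0.892, at 10.6 against 11.2 to 11.3.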

How the results depend on the processing

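The calls of NEAT1 and TUG1 held under every alternative run, with log2 fold changes from 0.24 to 0.43 and from 0.21 to 0.40, and with each library left out from 0.32 to 0.36 and from 0.26 to 0.34. MALAT1 kept its call under the other settings, from 0.50 to 0.92, and with each library left out ranged from 0.49 to 0.86 (limma adjusted p from 8.79e-07 to 0.0991), with the call kept only without control replicate 1. DANCR became called without the TMM factors (0.18), after the GC and length correction (0.30) and after that correction with the replicate block (0.30); the cause was not tested. With each library left out it ranged from 0.06 to 0.09 and was not called. The ratios of DANCR to NEAT1 and to TUG1, with each library left out, ranged from -0.37 to -0.30 and from -0.28 to -0.20, where the exact p cannot go below 0.0571. Scaling without the TMM factors moved the share of higher among called genes from 50.2% to 65.1%.

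The replicate numbers 1 to 4 are shared by the groups, and deviations of same-numbered libraries correlated at 0.38, 0.3271, 0.1734 and -0.1596 (mean 0.1802, against -0.0541 for other numbers). The pairing was to be used only if every pair passed 0.1, which replicate 4 did not, and 4 of the 8 libraries correlated best with their own number, a hint of partial pairing from the data. With the replicate block 4885 genes were called higher and 4894 lower, against 4787 and 4740, and the limma adjusted p was 0.00997 for MALAT1 and 0.102 for DANCR. Paired by number, the ratios of DANCR to NEAT1 and to TUG1 differed by -0.33 and -0.23, with an exact sign-flip p of 0.125, the smallest for 4 pairs. Depth did not limit NEAT1, MALAT1 or TUG1, each with 3406 reads or more per library; DANCR had between 1735 and 2431.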
